A study of Mus musculus with 5 samples.

Results

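The 79 genes described here encode the protein parts of the cytosolic ribosome. They were taken from the 17739 genes of the table by their symbols: Rpl or Rps followed by a number and at most 1 of the letters a, l or x, together with Rplp0, Rplp1, Rplp2 and Rpsa. Of the 79, 47 carry large subunit symbols and 32 small subunit symbols. They include 75 of the 80 core ribosomal proteins, 45 of 47 in the large subunit and 30 of 33 in the small subunit. The other 4 are Rpl39l and Rps27l, which are paralogs, and Rps4l and Rpl32l, which the GENCODE M21 annotation lists as processed pseudogenes. Of the remaining core genes, 4 are in the table under symbols of another form, among them Rps3a1 and Rack1, and Rpl26 was not analysed here. All 79 symbols matched 1 annotated gene each, so the label fits the symbols it was built from.

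The ribosome is made of a small subunit, which reads the mRNA, and a large subunit, which joins amino acids into protein. Each subunit holds ribosomal RNA and 1 copy of nearly every ribosomal protein, and cells make the proteins in matched amounts and degrade those left over. Most ribosomal protein mRNAs begin with a terminal oligopyrimidine (TOP) tract, a run of C and T that lets mTOR and LARP1 switch their translation on and off together. Loss of 1 gene copy of several members causes Diamond-Blackfan anaemia, and MYC family factors, among them the N-Myc of SHH-driven granule progenitors, are known to raise transcription of ribosomal genes.

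Medulloblastoma is a tumour of the cerebellum, and in its SHH subgroup the hedgehog pathway, whose transcription factor is GLI2, is active. The mice were Math1-Cre;Gli2A, made by crossing R26;Gli2A to Math1-Cre, in which Cre acts in granule neuron progenitors, and RNA came from their cerebellar tumour cells. A doxycycline diet was given to all of them from embryonic day 0, that is from conception, with GLI2 active. The cells were freed with papain, RNA was extracted at once, and strand-specific mRNA libraries were sequenced in bulk for 5 tumours, numbered 1, 5, 8, 14 and 15. These 5 libraries form 1 group with no control, and the labels give neither the age of the mice nor a statement that each number is a separate animal. The SD over the 5 therefore measures the spread between these samples, which may be partly technical. The deposited values are on a log2 scale and are read here as regularised-log values, so a difference of 1 is a doubling. In bulk RNA, fewer cells of a type and less RNA per cell cannot be told apart.

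Markers of the labelled cell type were present in every tumour. All 8 granule lineage and SHH markers (Atoh1, Zic1, Zic2, Pax6, Neurod1, Gli1, Ptch1 and Mycn) were in the table, with a median of 13.52 to 13.71. Other cell types were present too, and tumour 5 stood apart in them. Oligodendrocyte markers had a median of 12.34 in tumour 5, against 10.47 to 11.67 elsewhere, and all 5 were highest in tumour 5. Tumour 5 was also highest in 4 of 5 microglial markers (median 10.53, against 9.75 to 10.02), 4 of 4 endothelial markers (10.13, against 9.42 to 9.72) and 4 of 4 choroid plexus markers (7.94, against 6.95 to 7.14). Astrocyte markers had a median of 11.73 to 12.36, and 1 of 4 was highest in tumour 5. The red blood cell gene Alas2 was highest there as well, at 8.50, against 6.75 to 7.55. The other 4 red blood cell markers and the 3 T cell markers were not analysed here. The depth of the libraries is unknown, since the files give no counts.

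The start of a TOP mRNA can be seen in the genome as a run of pyrimidines around the annotated transcription start. RefSeq windows were found for 58 of the 79 members. A run of at least 8 C or T on the sense strand, within 20 bases of the annotated start, was present in 33 of 58 members (56.9%) and in 24.17% of the 13736 table genes that have a window. The mirror run of at least 8 A or G was present in 6 of 58 members (10.34%) and 25.27% of the table genes. The letters CGGAAG, on either strand of the 300 bases (250 before the start and 50 after it), were in 40 of 58 members (68.97%) and 29.23% of genes. The letters AAGATGGC were in 5 members (8.62%) and 4.28% of genes, and TATAAA in 7 (12.07%) and 9.98%. A match describes the letters only and is no proof that a factor binds or that transcription starts there.

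The tract is what most of these mRNAs are known to share. Windows are shown for 7 members that hold a run and for 1 that does not. The windows shown do not mirror the share of members with a run, which was 33 of 58. Each is 30 bases centred on the RefSeq start on GRCm38.p6, written 5′ to 3′ on the gene's own strand, with the pyrimidine run in capitals where it falls inside.
Rps6: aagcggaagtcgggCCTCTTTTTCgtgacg
Rpl38: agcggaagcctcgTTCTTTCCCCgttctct
Rplp2: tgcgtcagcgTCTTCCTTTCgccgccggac
Rpl35a: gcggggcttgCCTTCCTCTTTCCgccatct
Rps24: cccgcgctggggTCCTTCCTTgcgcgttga
Rps26: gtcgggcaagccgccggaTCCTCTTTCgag
Rps27: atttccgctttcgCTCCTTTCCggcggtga
Rpl36a: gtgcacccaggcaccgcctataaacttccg
They lie at chr4:86857353-86857382 (minus strand) for Rps6, chr11:114668565-114668594 (plus) for Rpl38, chr7:141447636-141447665 (plus) for Rplp2 and chr16:33056467-33056496 (plus) for Rpl35a. The others lie at chr14:24490663-24490692 (plus) for Rps24, chr10:128626492-128626521 (minus) for Rps26, chr3:90213634-90213663 (minus) for Rps27 and chrX:134585639-134585668 (plus) for Rpl36a. Rpl35a and Rps24 have other annotated starts besides the one printed. The run is 13 bases long in Rpl35a and 10 in Rps6, Rpl38 and Rplp2. The Rpl36a window has no such run, and holds the letters TATAAA.

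As a group, the members were among the more abundant mRNAs of these tumours. Their median deposited value was 12.26 in tumour 1, 12.09 in tumour 5, 12.14 in tumour 8, 12.24 in tumour 14 and 12.35 in tumour 15, with a mean of 12.22 ± 0.10 (SD, n = 5). The median over all 17739 genes was 8.54 ± 0.02 (SD, n = 5). A mean of at least 10 was reached by 72 of the 75 core genes and by 29.4% of the table. After transcript length was removed, by subtracting the log2 length in kb, the median of the 75 core genes was 12.77 and that of the 17302 table genes with a length was 7.18. When the log2 values were turned back to a linear scale, the members made up 2.19% of the summed value in tumour 1, 1.97% in tumour 5, 2.11% in tumour 8, 2.13% in tumour 14 and 2.37% in tumour 15. The share was lowest in tumour 5 and 1.20 times as large in tumour 15.

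**Figure D1:**
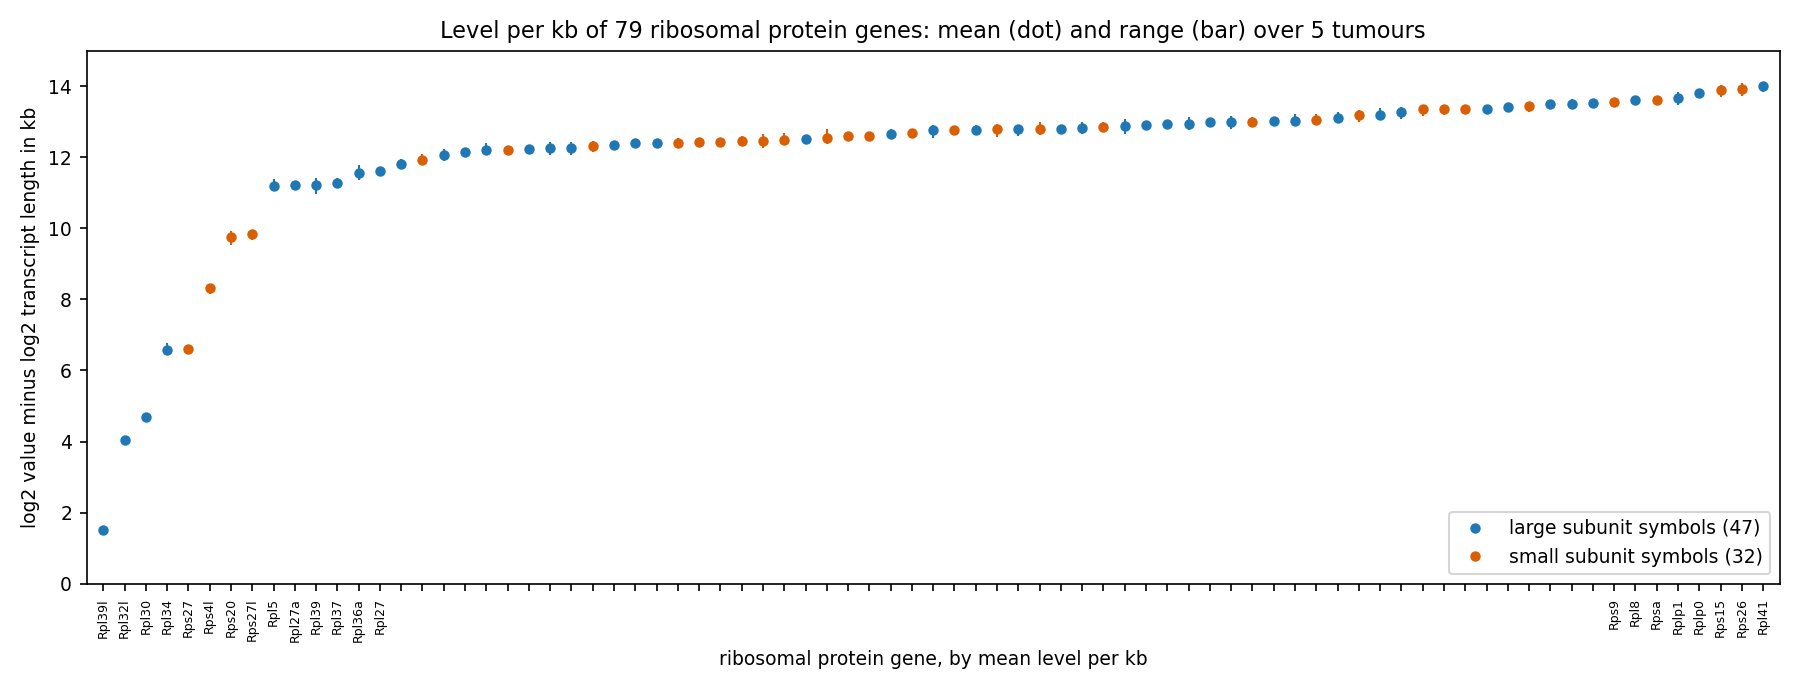
Mean level per kb (dots) and range over 5 tumours (bars) of the 79 members, as the deposited log2 value minus the log2 transcript length in kb, ordered by the mean and coloured by subunit, with names at both ends of the order. Most core genes lie near the median of 12.77, and Rpl30, Rpl34 and Rps27 lie far below with the copies Rpl39l and Rpl32l.

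Per kb of transcript, the core genes lay close together apart from a few. For the 72 core genes with a mean of at least 10, the middle 50% of genes by level per kb spanned 1.79-fold. That span was 2.29-fold before length was removed, and 3.31-fold when the union of all annotated exons stood in for the transcript. The highest level per kb was that of Rpl41 (14.00 ± 0.10, SD, n = 5), which encodes the smallest ribosomal protein. Rps26, which sits at the mRNA exit channel, had 13.93 ± 0.14 and Rps15, of the small subunit head, 13.89 ± 0.12. The lowest of the 72 was Rps20 at 9.76 ± 0.14, whose only principal transcript in the annotation is 3706 nt long for a coding sequence of 357 nt. Its deposited value, before length was removed, was 11.65 ± 0.14. Across the 75 core genes the deposited level went with coding length (Spearman's rho 0.70, Pearson's r 0.49), as a description over genes that share the same libraries.

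Large and small subunit genes had similar levels per kb. The median of the 44 large subunit members with a mean of at least 5 was 12.80 ± 0.10 and that of the 32 small subunit members was 12.66 ± 0.08 (SD, n = 5). The 44 are all core genes, while the 32 include the paralog Rps27l (9.85 per kb) and the pseudogene Rps4l (8.31). Large minus small was 0.21 in tumour 1, 0.10 in tumour 5 and 0.13 in each of tumours 8, 14 and 15. The mean difference of 0.14 ± 0.04 had the same sign in every tumour, and 76 of the 79 members entered it.

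In the large subunit, Rpl4, which lines the exit tunnel of the new protein chain, had deposited values of 14.15, 13.99, 14.10, 14.09 and 14.22 in tumours 1, 5, 8, 14 and 15. It was lowest in tumour 5 and highest in tumour 15. Rpl39, a very small protein that also lines the tunnel, had 10.60, 10.26, 10.48, 10.54 and 10.72, the widest range of the members (1.38-fold between tumours 5 and 15). Rpl36a had 10.60, 10.32, 10.42, 10.53 and 10.74, and Rpl21 had 12.77, 12.51, 12.70, 12.68 and 12.93. In these 3 genes, too, tumour 5 was the lowest and tumour 15 the highest. Rpl38, whose loss in mice alters translation of Hox mRNAs, had 11.35, 11.00, 11.19, 11.21 and 11.36, with tumours 1 and 15 level at the top. Rpl23a had 12.21, 11.96, 12.07, 12.15 and 12.34, with tumour 5 lowest and tumour 15 highest. In Rpl23, whose protein can bind MDM2, tumour 8 was as low as tumour 5: the values were 12.38, 12.15, 12.14, 12.25 and 12.49.

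Other large subunit genes hardly varied. Rpl27, 1 of the Diamond-Blackfan genes, had 10.90, 10.88, 10.95, 10.96 and 10.90, the smallest SD of the members with a mean of at least 5 (10.92 ± 0.04). Its tumours 5 and 15 differed by only 0.02. Rpl7a, which also hosts small nucleolar RNAs in its introns, had 13.44, 13.33, 13.35, 13.41 and 13.45. Rpl9 had a mean of 12.25 ± 0.06. Rpl8, a protein of the subunit core, had 13.41, 13.25, 13.43, 13.38 and 13.43, with tumour 5 below the other 4.

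Rpl5 and Rpl11 form a particle with 5S ribosomal RNA that binds MDM2 when ribosome assembly fails. Their deposited values were close, at 12.23 ± 0.13 for Rpl5 and 12.26 ± 0.07 for Rpl11. Rpl5 minus Rpl11 was -1.33 ± 0.08 per kb, negative in 5 of 5 tumours, and -0.03 without length. With the union of annotated exons as length the mean difference was -0.57. The size of the difference thus depended on the length taken, which was 2045 nt for the Rpl5 transcript.

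In the small subunit, Rpsa, a protein also known as the laminin receptor, had deposited values of 14.37, 14.14, 14.31, 14.29 and 14.36 in tumours 1, 5, 8, 14 and 15. Rps26 had 13.46, 13.17, 13.33, 13.39 and 13.54. Rps12 had 11.53, 11.37, 11.49, 11.52 and 11.77. Rps6, the substrate of the S6 kinases downstream of mTOR, had 12.33, 12.15, 12.20, 12.21 and 12.40. Tumour 5 was the lowest in all 4, and tumour 15 was the highest in all but Rpsa, where tumours 1 and 15 were level. Rps19, the gene most often mutated in Diamond-Blackfan anaemia, had 11.61, 11.50, 11.67, 11.67 and 11.79. Rps14, known for its loss in the 5q deletion syndrome of the human bone marrow, had a mean of 12.62 ± 0.07. Rps27a, which is made as a fusion with ubiquitin, had 11.73, 11.65, 11.74, 11.75 and 11.90. Rps20 had 11.64, 11.43, 11.65, 11.71 and 11.81.

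The P stalk of the large subunit recruits the elongation factors, with Rplp0 as its base and Rplp1 and Rplp2 as its arms. Rplp0 had 14.26, 14.12, 14.27, 14.26 and 14.31, so that tumour 5 lay apart below the other 4. Rplp1 had 12.76, 12.47, 12.66, 12.67 and 12.83, and Rplp2 had 11.65, 11.56, 11.68, 11.71 and 11.78. Per kb, Rplp1 was above Rplp2 in each of the 5 tumours, by 0.76 ± 0.08 (1.69-fold). With the union of annotated exons as length the difference was 3.06.

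Between tumours the members moved together and by small amounts. For 76 members the mean was at least 5; Rpl30, Rpl32l (2.73 ± 0.07) and Rpl39l did not reach it. Their median SD over the tumours was 0.10 (1.07-fold) and their median range was 1.20-fold. None of the 76 ranged over more than 1.5-fold, against 14.7% of the 13691 table genes that passed the same filter. A range over 2-fold was met by none of the 76 and by 3.79% of those genes. The highest tumour was more than 25% above the lowest in 23 of 76 members (30.3%), against 40.2%. Abundant genes varied less, and beside them the members were not less variable at the smaller size. Of the 5209 table genes whose mean reached 10, 6.91% ranged over 1.5-fold and 24.8% over 25%, while 31.9% of the 72 core genes at that mean ranged over 25%. The median SD was 0.09 in those table genes and 0.10 in the 72 core genes.

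Tumour 5 was the lowest of the 5 in 70 of the 76 members, against 24.6% of all genes at that mean. Tumour 15 was the highest in 68 of 76, against 21.4%. Tumour 1 was the highest in 4 of 76, against 20.2%, tumour 5 in 2, against 24.1%, and tumours 8 and 14 in 1 each, against 18.5% and 15.8%. The median over members of a tumour's value minus the mean of the other 4 was -0.17 in tumour 5 and 0.16 in tumour 15. It was 0.05 in tumour 1, -0.02 in tumour 8 and 0.01 in tumour 14. Over all 13691 genes these medians lay between -0.01 and 0.00, so the columns as a whole were level. The sign for tumours 8 and 14 turned under some of the alternative settings, and for those 2 tumours no direction is drawn. Each tumour is a single library, so these are descriptions with no test.

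**Figure D2:**
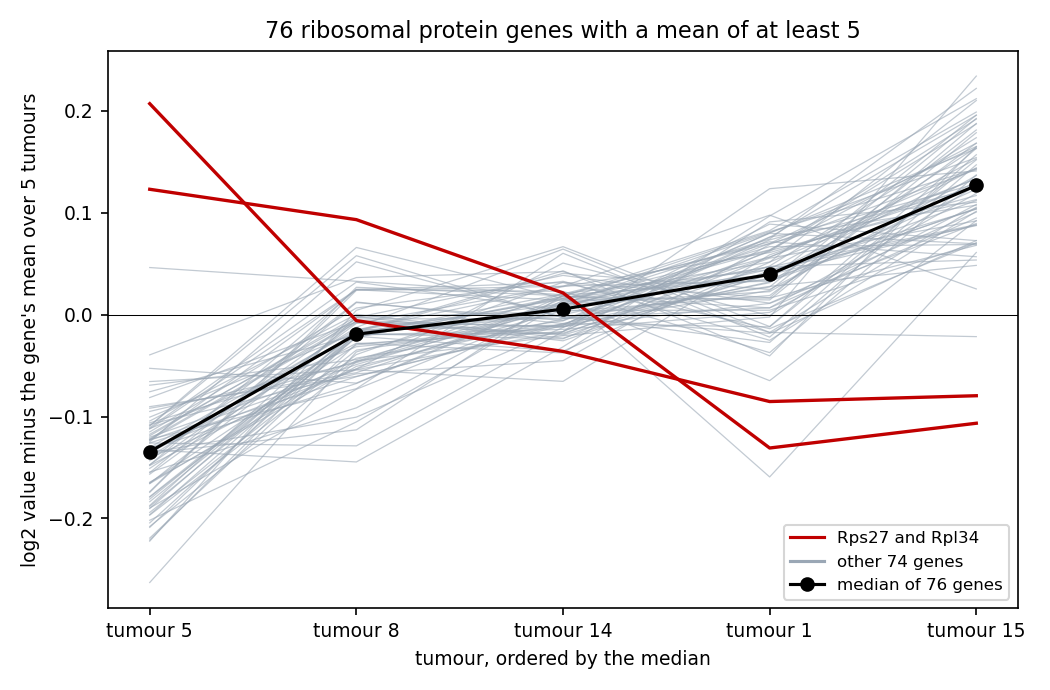
Log2 value in each tumour minus the gene's own mean over 5 tumours (vertical axis) for the 76 members with a mean of at least 5, with tumours ordered by the median (black). Nearly all lines are lowest in tumour 5 (70 of 76) and highest in tumour 15 (68 of 76), and Rps27 and Rpl34 (red) run the other way.

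The pair of tumours 5 and 15 was set side by side after these counts were seen. The value was higher in tumour 15 in 74 of 76 members, with a median difference of 0.26, against 49.9% of all genes. Both extremes, highest in tumour 15 and lowest in tumour 5, were met by 64 of 76 members (84.2%) and by 7.84% of all genes. The pattern held in both subunits. It was met by 37 of 44 core large subunit genes and 27 of 30 core small subunit genes, with median differences of 0.25 and 0.27. The other 12 members had another tumour at 1 end or at both. Rpl15, Rpl41, Rpsa and Rps27l were highest in tumour 1, Rpl8 in tumour 8 and Rpl27 in tumour 14, with tumour 5 still the lowest. Rpl7, Rpl23 and Rps15a were highest in tumour 15 and lowest in tumour 8, and Rps4l was highest in tumour 15 and lowest in tumour 1. Rps27 and Rpl34 ran the other way, highest in tumour 5 and lowest in tumour 1.

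The other 3 tumours lay between. Members were above tumour 5 in 73 of 76 cases in tumour 1, 70 in tumour 8 and 73 in tumour 14. For all genes with a mean of at least 5 the shares were 52.2%, 49.9% and 51.2%. Members were below tumour 15 in 71 of 76 cases in tumour 1 and in 72 each in tumours 8 and 14. The shares of all genes were 46.0%, 50.6% and 47.6%. Among themselves tumours 1, 8 and 14 differed less. Of 76 members, 54 were lower in tumour 8 than in tumour 14, against 50.7% of all genes. In tumour 1, 55 were higher than in tumour 14, against 50.4%, and 59 were higher than in tumour 8, against 51.3%. On the X chromosome, where Rpl10, Rpl36a, Rpl39 and Rps4x lie, all 4 members followed the same order at its ends. Their deviation from the other tumours ran from -0.33 to -0.16 in tumour 5 and from 0.14 to 0.28 in tumour 15.

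Tumour 5 is also the tumour with the highest oligodendrocyte, microglial, endothelial and choroid plexus markers given above. In tumour 15 the medians of the first 2 were 10.51 and 9.75. The oligodendrocyte markers were not lowest there: all 5 were lowest in tumour 1, with a median of 10.47. Of the 5 microglial markers, 4 were lowest in tumour 15 and 1 was highest there. Alas2 was lowest in tumour 15 too, as were 1 of 4 endothelial and 2 of 4 choroid plexus markers. Of the 8 granule lineage and SHH markers, 5 were higher in tumour 15 than in tumour 5 (median difference 0.04) and 3 ranged over 1.5-fold. Atoh1, the progenitor gene whose promoter gives Math1-Cre its name, had 8.00, 8.17, 8.27, 9.18 and 9.49 in tumours 1, 5, 8, 14 and 15, highest in tumour 15. The hedgehog target Ptch1 had 14.66, 13.92, 14.73, 14.45 and 14.60, and Gli1 had 12.18, 11.92, 12.48, 12.53 and 12.22, both lowest in tumour 5. Zic1, Zic2 and Pax6 went the other way and were lowest in tumour 15. Their values in tumour 15 minus tumour 5 were -0.07, -0.11 and -0.18. The part of these genes and cell types in the difference between tumours 5 and 15 was not tested. Abundant genes did not all move with the members. Among 976 other genes with a mean of at least 12, the median difference between tumours 15 and 5 was 0.01, and 5.84% met both extremes. Among 174 other protein-coding genes with a transcript under 1000 nt and a mean of at least 10, it was -0.01, and 12 of 174 (6.90%) met both extremes.

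Within the members the size of the difference went with coding length, and less with transcript length. The 72 core genes with a mean of at least 10 were ranked by coding length and split into sets of 24. Tumour 15 exceeded tumour 5 by a median of 0.34 (1.27-fold) in the shortest set (75 to 405 nt), 0.26 in the middle set (408 to 576 nt) and 0.25 (1.19-fold) in the longest (582 to 1257 nt). Spearman's rho over the 72 genes was -0.37 and Pearson's r was -0.30, given as a description since the genes share the same libraries. With transcript length in place of coding length, rho was -0.16 and r was 0.02. Among the largest differences were those of Rpl39 (0.46), Rpl36a (0.42) and Rps12 (0.40) in the shortest set and Rpl21 (0.41) in the middle set.

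Ribosomal protein genes have many processed pseudogenes, which can blur read counts. For each core gene the share of its transcript's 50-base words that also occur in an annotated transcript from another locus was counted. The share was highest in Rps27, at 98.65%, with a median of 54.5%. Pseudogenes sharing such a word were found for 74 of 75 core genes, and 121 of them for Rpl7a. Of the 7 core genes under 20%, among them Rpl39, Rpl4, Rpl8 and Rps20, 6 met both extremes, with a median difference of 0.26. So did 26 of 32 genes between 20% and 60% (0.31) and 32 of 35 genes at 60% or more (0.25). The part of shared words in the difference between tumours 5 and 15 was not tested.

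Of the core genes, 3 were listed far below their partners in the ribosome. Rpl30 had 3.92, 3.86, 3.84, 3.87 and 3.93 in tumours 1, 5, 8, 14 and 15, and Rps27 had 4.94, 5.19, 5.16, 5.09 and 4.96. Rpl34 had 5.43, 5.72, 5.50, 5.47 and 5.43. Their levels per kb were 4.70, 6.61 and 6.57, beside a median of 12.80 for the 72 core genes with a mean of at least 10. Per kb, these 3 lay far outside the range of the other core genes in every tumour. Their shares of words found in other genes were 47.8% for Rpl30, 98.65% for Rps27 and 50.6% for Rpl34. Rpl10 had a share of 92.1% and a level per kb of 13.37 ± 0.10, and rho between share and deposited level over the 75 core genes was -0.17, as a description. The setting for reads that map to several places is not given in the sources used here, and its part in these low values was not tested.

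**Figure D3:**
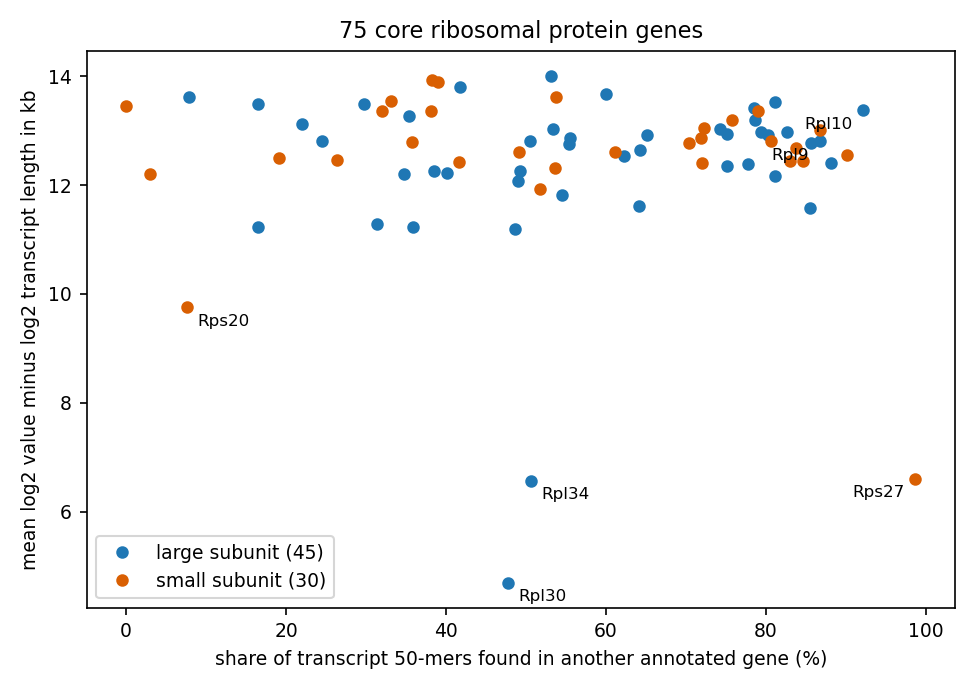
Mean log2 value minus log2 transcript length in kb (vertical axis) against the share of a transcript's 50-base words found in another annotated gene (horizontal axis, %) for the 75 core genes. Rpl30, Rps27 and Rpl34 lie far below the rest, at shares from 47.8% to 98.65%.

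Rps27 has both a retrogene with the same coding sequence, Rps27rt, which was not analysed here, and a diverged paralog, Rps27l, a target of p53. The first 60 coding bases are shown because they show where the copies differ. They are from GENCODE M21 transcripts on GRCm38, 5′ to 3′ on the gene's strand, with capitals where a base differs from Rps27.
Rps27: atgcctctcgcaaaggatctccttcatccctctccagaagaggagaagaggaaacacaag
Rps27rt: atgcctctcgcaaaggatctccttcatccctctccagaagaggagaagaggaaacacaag
Rps27l: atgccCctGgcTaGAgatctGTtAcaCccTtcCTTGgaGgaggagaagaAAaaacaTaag
Rps27 lies at chr3:90212522-90213651 (minus strand), Rps27rt at chr9:114982366-114982739 (minus) and Rps27l at chr9:66946086-66949516 (plus). Rps27 and Rps27rt are identical over all 252 coding bases. Rps27l differs from Rps27 at 60 of them (76.2% identity), 18 of which are among the 60 bases shown.

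Rps27l was listed well above Rps27, with the paralog above the core gene. Rps27l had deposited values of 8.94, 8.67, 8.87, 8.87 and 8.87 in tumours 1, 5, 8, 14 and 15. Per kb, Rps27 minus Rps27l was -3.47, -2.94, -3.17, -3.25 and -3.37 in the same tumours. The mean was -3.24 ± 0.20 (SD, n = 5), negative in each tumour. The low value of Rps27 enters this difference, with the limit given above for its shared words.

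The other paralog pairs had the core gene above its copy in every tumour. Rpl39l, known from testis, was near the floor of the table at 0.63 ± 0.04, and Rpl39 exceeded it by 9.73 ± 0.18 per kb. Rps4x, the X-linked gene for the protein eS4, exceeded Rps4l by 4.74 ± 0.15. Rpl22 exceeded Rpl22l1, whose splicing and level Rpl22 protein is known to restrain, by 3.44 ± 0.06. Rpl7 exceeded Rpl7l1 by 3.08 ± 0.07, and Rpl36a exceeded the intronless copy Rpl36al by 1.01 ± 0.11 (2.01-fold). The share of 50-base words found at other loci was 85.5% for Rpl36a and 46.5% for Rpl36al. Of the Rpl36al transcript, 63.1% overlaps another annotated gene on the same strand. The part of these in the difference was not tested. Of 10 pairs chosen, 8 could be compared, including Rplp1 with Rplp2 and Rpl5 with Rpl11. The copies Rpl3l and Rpl10l were not analysed here. Per kb, each of the 8 kept its sign across all 5 tumours. An exact sign-flip permutation test (two-sided) gave p = 0.063 for each, the smallest p that 5 tumours allow. After Benjamini-Hochberg adjustment over the 8 it was again 0.063.

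How far these copies differ in sequence is shown for the small X-linked genes, whose paralogs lie on autosomes. The first 60 coding bases are again from GENCODE M21 on GRCm38, with capitals where the paralog differs from the first gene of its pair.
Rpl39: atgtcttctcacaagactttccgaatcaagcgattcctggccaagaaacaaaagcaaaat
Rpl39l: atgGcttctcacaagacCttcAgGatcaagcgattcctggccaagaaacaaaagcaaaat
Rpl36a: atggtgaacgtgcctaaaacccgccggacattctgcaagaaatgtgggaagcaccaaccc
Rpl36al: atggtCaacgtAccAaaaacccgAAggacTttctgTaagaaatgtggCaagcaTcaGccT
Rpl39 lies at chrX:37082520-37085402 (minus strand) and Rpl39l at chr16:10170226-10174911 (plus). Rpl36a lies at chrX:134585654-134588062 (plus) and Rpl36al at chr12:69182731-69184083 (minus). Rpl39l differs from Rpl39 at 23 of 153 coding bases (85.0% identity) and Rpl36al from Rpl36a at 39 of 318 (87.7%).

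The order of tumours 5 and 15 was also seen in most ribosomal genes with other symbols and in other TOP mRNAs, while mitochondrial ribosomal and biogenesis genes were nearer an even split and most snoRNA hosts were lower in tumour 15. Of 9 ribosomal genes with other symbols, 8 were higher in tumour 15 than in tumour 5, with a median difference of 0.15. Rack1, a signalling scaffold on the small subunit, had 13.46, 13.28, 13.41, 13.44 and 13.52 in tumours 1, 5, 8, 14 and 15, and Rps3a1 had 12.66, 12.44, 12.58, 12.59 and 12.72. Of 13 other mRNAs with a known TOP tract, all 13 were higher in tumour 15, with a median difference of 0.20, and 7 met both extremes. Eef1a1, the elongation factor that brings aminoacyl-tRNA to the ribosome, had 16.83, 16.63, 16.72, 16.76 and 16.91. Eef1g, a subunit of its exchange factor, had 12.37, 12.11, 12.13, 12.21 and 12.43. Both were lowest in tumour 5 and highest in tumour 15. Eef2, which moves the ribosome along the mRNA, had 16.07, 15.91, 15.99, 15.96 and 15.99, a difference of only 0.09 between tumours 5 and 15.

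The proteins of the mitochondrial ribosome, a separate machine, did not share the order. Of 78 such genes 44 were higher in tumour 15 (median difference 0.03), near the 49.9% of all genes, and 5 of 78 met both extremes. Of 34 ribosome biogenesis genes, 19 were higher in tumour 15 (median 0.01), none met both extremes and 15 were highest in tumour 14. Npm1, a nucleolar chaperone, had 13.16, 13.04, 13.03, 13.21 and 13.37, a difference of 0.33, and Ncl, which acts on ribosomal RNA transcription and processing, had 13.59, 13.50, 13.57, 13.69 and 13.66. Gnl3, another nucleolar protein, went the other way with 10.10, 10.26, 10.29, 10.29 and 10.02. Of 11 genes that control TOP mRNAs and mTOR, 7 were higher in tumour 15 (median 0.01) and 8 were highest in tumour 14. Larp1, which binds the TOP tract, had a mean of 12.42 ± 0.06. Eif4ebp1, a repressor of cap-dependent translation, was the 1 gene of the 11 that ranged over 1.5-fold, with 7.74, 7.24, 7.57, 7.91 and 7.57.

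The snoRNA host genes are noncoding TOP transcripts that are degraded when they are translated. Only 1 of 8, Snhg6, was higher in tumour 15 than in tumour 5, and their median difference was -0.10. Snhg5 had 10.20, 10.51, 10.53, 10.49 and 10.22, and Gas5 had 11.22, 11.25, 11.05, 11.16 and 11.21. The ribosomal RNA precursor Rn45s had 15.36, 15.49, 15.63, 15.60 and 15.42 (15.50 ± 0.11), highest in tumour 8 and lowest in tumour 1. Its order thus differed from that of the members, in libraries made from mRNA. The 17 of 18 Diamond-Blackfan genes that were in the table followed the other members, with 16 of 17 higher in tumour 15, 13 at both extremes and a median difference of 0.25.

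**Figure D4:**
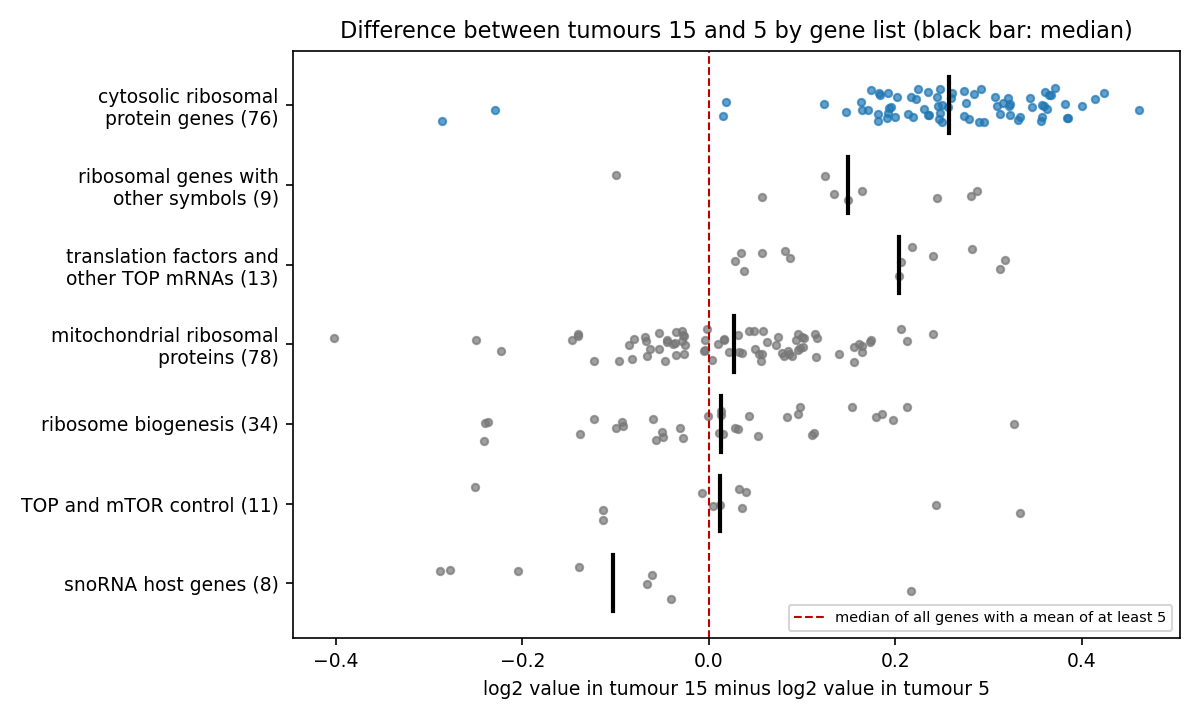
Log2 value in tumour 15 minus log2 value in tumour 5 (horizontal axis) for each gene (points) of 7 lists, with each list's median (black bar) and the median of all genes with a mean of at least 5 (dashed line). Members, with a median of 0.26, and other TOP mRNAs, with 0.20, lie to the right, while mitochondrial ribosomal and biogenesis genes centre at 0.03 and 0.01.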

How the data were processed

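Libraries were strand-specific mRNA, per the labels. The submitters' processing notes name STAR 2.4.1, featureCounts, Subread 1.4.6 and DESeq2, with the builds mm10 and GRCm38. The authors deposited log2 values, read here as DESeq2 regularised-log values, though no source states this outright; that transformation pulls weakly expressed genes towards their mean, so their differences are understated. Not given in the sources used here are the annotation, the strand and multi-mapping settings and the gene filter. Counts were not used here, which leaves the depth unknown and allows no counting interval. Of 7 columns, 2 match no sample and were not used.

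Members and lists were chosen with earlier results of these data known. Medians over genes were taken in each tumour, and then the mean and SD over 5 tumours. A mean of at least 5 was required for spreads and orders. Lengths, positions and shared words came from GENCODE M21 (GRCm38): the shortest principal transcript for length, exact 50-base matches on either strand for sharing, leaving out genes that overlap the member. Only annotated transcripts were searched, not the genome. Promoter windows were RefSeq's on GRCm38.p6. Pairs were tested by exact sign-flip permutation (two-sided) over 32 sign patterns, with Benjamini-Hochberg adjustment.

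Genes were named by rule: members with the 6 highest and 6 lowest means, the 8 largest and 3 smallest SD, pair genes, X-linked members and 11 chosen for their known roles, plus from each other list the 2 highest means, the lowest and the 2 largest SD. Some genes are not reported here. Rps15, Rps24, Snhg6, the granule lineage markers with values and the 12 members outside the common order were named after their values were seen. Alternatives were the mean for the median, other filters, folds, centrings and lengths, and leaving out each tumour. The range call, the count of lowest values and the median deviation were tested on simulated data. Python 3.11.15, numpy 2.4.6, pandas 2.3.3, scipy 1.17.1 and matplotlib 3.10.9 were used.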

Additional observations from a re-analysis of the deposited data

Results flagged for a closer look

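Of 78 values examined over the 5 tumours, 6 had 1 tumour far from the other 4, judged by the gap to the nearest tumour as a share of the whole range (Dixon's ratio above 0.71). Chance alone does this in about 1 of 20 groups, and 5.57% of all genes with a mean of at least 5 passed the same ratio. The count of 6 in 78 is not far from that share, so the values are listed and no pattern is drawn from them. Tumour 5 was the low one in 4 of the 6. Rplp0, the base of the P stalk, had a deposited log2 value of 14.12 in tumour 5 and 14.26 to 14.31 in the others. Rpl41, the smallest ribosomal protein, had 12.63 in tumour 5 and 12.83 to 12.88 elsewhere. Rps27l, the p53-responsive paralog of Rps27, had 8.67 in tumour 5 and 8.87 to 8.94 elsewhere. Eif4ebp2, a repressor of cap-dependent translation, had 11.03 in tumour 5 and 11.25 to 11.33 elsewhere. Rpl34, at the low level described above, was high in tumour 5, with 5.72 beside 5.43 to 5.50. Rps4l, a processed pseudogene, was low in tumour 1, with 7.81 beside 7.99 to 8.03.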

How the results depend on the processing

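No result changed direction under the alternatives run, apart from the deviations of tumours 8 and 14 from the other tumours, both near 0. On deposited values the mean of Rpl5 minus Rpl11 stayed negative, at -0.03, but the sign was no longer the same in every tumour. Rpl5 was then above Rpl11 in tumour 14 (12.250 and 12.241) and tumour 15 (12.43 and 12.35). The members' level of 12.22 was 11.66 as a mean over members and 12.74 with length subtracted. The count of members ranging over 1.5-fold, 0, was 23 for a range over 25%. Large minus small subunit, 0.14, was 0.19 with means, 0.24 on deposited values and 0.10 with union exon lengths, an alternative chosen after seeing the data. Leaving out each tumour gave levels of 12.18 to 12.25 and a large minus small difference of 0.13 to 0.15. The deviation of tumour 5 then lay between -0.19 and -0.14 and that of tumour 15 between 0.12 and 0.18. Tumour 1 lay between 0.00 and 0.09, tumour 8 between -0.08 and 0.02 and tumour 14 between -0.04 and 0.05. The count lowest in tumour 5 was 70 to 73 and that highest in tumour 15 was 68 to 71. With columns centred on abundant other genes, tumour 5 deviated by -0.15 and tumour 15 by 0.20, and 68 members were lowest in tumour 5 and 72 highest in tumour 15. Samples could not be paired because the 5 tumours form a single group, and the pairs tested were of genes within a tumour. With 5 tumours the exact sign-flip test used for the pairs cannot pass 0.05, and each tumour is 1 library, so a difference between tumours 5 and 15 cannot be told apart from one between their libraries.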

Other observations

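The mitochondrial ribosomal protein genes differed from the cytosolic ones in their most common high tumour. Of 78 such genes, 28 were highest in tumour 1, against 20.2% of all genes past the same filter on the mean, while 24 were lowest in tumour 5, against 24.6%, and 23 in tumour 8, against 22.6%. Mrpl36 had deposited log2 values of 8.60, 8.37, 8.15, 8.28 and 8.55 in tumours 1, 5, 8, 14 and 15, and Mrps15 had 9.34, 9.08, 8.91, 9.08 and 9.29, both highest in tumour 1 and lowest in tumour 8. Mrpl4 had 10.44, 10.55, 10.56, 10.50 and 10.41, lowest in tumour 15, where most cytosolic members were highest.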
